A study of Homo sapiens with 6 samples.

Results

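HLA class I antigen presentation was followed in U87, a long-established line of human glioblastoma cells, through 9 genes: the heavy chains HLA-B, HLA-C and HLA-E, the light chain B2M, the peptide loading genes TAP1, TAP2, TAPBP and ERAP1, and the transcriptional regulator NLRC5. The genes were chosen by name for their role, with earlier results of these data known, and are 9 of the 60671 genes in the expression table. All 9 had a TPM (the deposited unit, a level scaled to transcript length and to the library total) of at least 1 in at least 3 libraries, so all were among the 14377 genes tested. The rutaecarpine group comprised 3 libraries of cells exposed for 48 h to 100 μM rutaecarpine, an alkaloid of Evodia rutaecarpa. The control group comprised 3 libraries of cells given the solvent, 0.1% DMSO, for 48 h. The DMSO concentration and the serum-free dosing medium were shared by both groups, and a single line and a single dose were sequenced. The labels do not say whether libraries of a group came from separate cultures, so the p-values measure only the spread between these libraries.

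TPM keep no read numbers, and the depth of each library is therefore unknown. Between 13758 and 14475 genes reached a TPM of 1 per library. Control replicate 3 stood apart, with a median log2(TPM + 1) over the tested genes of 3.56 against 3.81 to 4.00 in the other libraries. For the named genes whose call or direction it changed, values without it are given beside them or among the ranges of the last section. The line markers VIM, FN1, SPARC, NES and CD44 were all detected, and 4 of the 5 were lower after rutaecarpine by the test, VIM for example at 7498 TPM in controls and 4857 TPM after rutaecarpine. The calls of NES and SPARC each held in 1 of the 6 fits that left out a library, and that of VIM was lost with libraries centred on their medians (limma adjusted p = 0.0768). Of the 7 leukocyte markers only CD68, which many non-immune cells also express, was tested, and its mean fell from 473 to 342 TPM (a call that held in 1 of those 6 fits and was lost with centring), while PTPRC, CD3E, CD14, ITGAM and NKG7 were at or near 0. In such bulk libraries, fewer cells that express a gene and less RNA of it per cell cannot be told apart.

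Class I molecules display short peptides from proteins made inside the cell to CD8 T cells. Each molecule is a heavy chain paired with beta-2-microglobulin, the product of B2M. TAP1 and TAP2 form the transporter that carries peptides into the endoplasmic reticulum, tapasin (TAPBP) holds the empty heavy chain at that transporter, ERAP1 trims the peptides, and NLRC5 switches on the heavy chain, B2M and TAP1 genes. HLA-E is a non-classical heavy chain that presents mainly leader peptides of other class I chains and is read by natural killer (NK) cells through CD94 and NKG2A. Gliomas are known for limited T cell recognition, in which class I levels are one of the factors studied.

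HLA-B (ENSG00000234745, chr6:31269491-31357188), HLA-C (ENSG00000204525, chr6:31268749-31272130), HLA-E (ENSG00000204592, chr6:30489467-30494205), TAP1 (ENSG00000168394, chr6:32845209-32853978), TAP2 (ENSG00000204267, chr6:32821833-32838780) and TAPBP (ENSG00000231925, chr6:33299694-33314387) all lie in the major histocompatibility complex, on the GRCh38 build with GENCODE 29 annotation. B2M (ENSG00000166710, chr15:44711487-44718877), ERAP1 (ENSG00000164307, chr5:96760810-96808100) and NLRC5 (ENSG00000140853, chr16:56989485-57083531) lie on other chromosomes. The annotated span of HLA-B, 87698 bp, overlaps HLA-C by 2640 bp. Of the 100-base windows of the TAP2 reference transcript, 35.2% also occurred in transcripts of AL669918.1, so the TPM of TAP2 depends on how the quantification divided those reads. The same share was 0.278% for HLA-C, 0.6% for HLA-E and 0% for the other members. HLA genes are also highly polymorphic, and reads of the line's own alleles were assigned by the authors against a reference.

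The stretches below lie upstream of RefSeq start sites. Those of TAP1 and TAPBP lie inside the GENCODE spans of these genes given above, and that of HLA-C lies inside the span of HLA-B. The stretches are shown because they hold the letters through which class I genes are known to be read by interferon and NF-kappaB signalling. The sequences are from RefSeq (GRCh38.p14), on the gene's own strand, and 7 of the 9 members had a promoter entry; HLA-E and NLRC5 had none. HLA-B (chr6:31357219-31357374, minus strand), HLA-C (chr6:31272132-31272287, minus strand) and B2M (chr15:44711322-44711477, plus strand) are given from 195 to 40 bases before the start. TAP1 (chr6:32853818-32853847), TAP2 (chr6:32838781-32838810) and TAPBP (chr6:33314079-33314105), all on the minus strand, are given around their interferon regulatory factor (IRF) letters. Capitals mark matches, on either strand, to the IRF element TTTCNNTT, the kappaB letters GGNNTTNCC and the CCAAT box, and adjoining or overlapping matches run together.
HLA-B: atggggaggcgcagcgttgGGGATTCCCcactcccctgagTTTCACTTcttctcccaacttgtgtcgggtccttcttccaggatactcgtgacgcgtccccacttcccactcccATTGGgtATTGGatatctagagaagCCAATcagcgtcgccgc
HLA-C: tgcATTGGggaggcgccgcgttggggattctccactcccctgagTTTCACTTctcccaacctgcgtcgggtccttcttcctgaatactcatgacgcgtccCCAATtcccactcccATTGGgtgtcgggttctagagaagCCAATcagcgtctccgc
B2M: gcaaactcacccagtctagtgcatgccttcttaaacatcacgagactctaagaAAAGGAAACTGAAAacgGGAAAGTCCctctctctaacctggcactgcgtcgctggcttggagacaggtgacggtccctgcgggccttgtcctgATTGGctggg
TAP1: ggcggccgcTTTCGATTTCGCTTtccccta
TAP2: tggctggggAAGCGAAAGCGAAAgctgccc
TAPBP: tttggaggaAAGTGAAAGTGAAAggag
In the 250 bases before the start, the IRF element was found in 6 of the 7 promoters (all but ERAP1), against 20.3% of 35116 RefSeq promoters. The kappaB letters were found in 5 of 7, in HLA-B, B2M, TAP1, TAPBP and ERAP1, against 15.0%, and CCAAT in 5 of 7, in HLA-B, HLA-C, B2M, TAP1 and ERAP1, against 32.0%. The motif letters were chosen with the sequences in view. The HLA-B and HLA-C stretches were identical at 140 of 160 aligned columns (87.5%). Rutaecarpine is known as a ligand of the aryl hydrocarbon receptor (AhR), which binds DNA at dioxin response elements. The core GCGTG of that element, on either strand, was in 4 of 7 promoters (HLA-B, B2M, TAP1 and ERAP1) against 32.2% of all, and the longer form CACGCNA was in 0 of 7 against 4.52%. A match in these windows is a description of letters and not a measured binding site.

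Class I transcripts were abundant in both groups, as shown in the plot of TPM by library. Averaged over the 6 libraries, B2M ranked 8 among all genes, HLA-B ranked 30 and HLA-C ranked 96. Over the 6 libraries, the ranges of B2M, HLA-B, HLA-C, HLA-E and TAPBP did not overlap each other in that order, and the range of TAPBP lay above that of TAP1. Below them, the range of TAP1 (27.4 to 39.5 TPM) lay above that of NLRC5 (15.8 to 27.0 TPM), while ERAP1 and TAP2 overlapped each other and both of these genes.

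**Figure D1:**
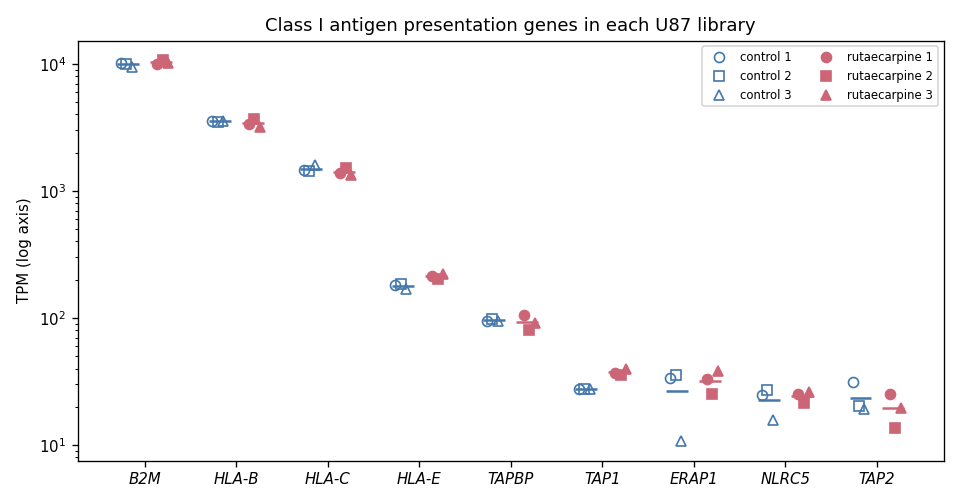
TPM of the 9 class I antigen presentation genes (log axis) in each of 3 control libraries (open symbols) and 3 rutaecarpine libraries (filled symbols), with a line at each group mean. TAP1 and HLA-E were higher in all 3 rutaecarpine libraries than in any control library, and control 3 was the lowest library for ERAP1 (10.7 TPM) and NLRC5 (15.8 TPM).

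The comparison of rutaecarpine with solvent asked whether the class I genes moved with the treatment. TAP1 was the only member called (adjusted p of at most 0.05 in limma, by the Benjamini-Hochberg method across the whole table), at 1.36 times the control mean, and HLA-E was higher in every rutaecarpine library without passing the test. The heavy chains HLA-B and HLA-C and the light chain B2M differed by less than the spread between libraries. By this test 1 of 9 members was called, against 9.29% of all tested genes, or 4.60% counted as higher and 4.68% counted as lower. None was a DEG (differentially expressed gene, called and with an absolute log2 fold change above 1), against 3.51% of all tested genes. The groups did not overlap in 2 of the 9 members, TAP1 and HLA-E, against 33.3% of all tested genes, and an unadjusted p under 0.05 was found for the same 2 members and for 3506 of all tested genes. On the log2(TPM + 1) scale the members' median fold change was 0.05, beside 0.08 for all tested genes, and their median absolute fold change was 0.12, beside 0.25.

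HLA-B, a classical heavy chain, had 3579, 3475 and 3568 TPM in the controls and 3374, 3683 and 3172 TPM after rutaecarpine. The rutaecarpine libraries lay on both sides of the controls. The means were 3541 ± 56.9 and 3410 ± 257 TPM (SD, n = 3), with a log2 fold change of -0.06 (SE 0.08, 95% CI -0.25 to 0.14, limma adjusted p = 0.702). HLA-C, a further classical chain, had 1453, 1445 and 1605 TPM in the controls and 1384, 1524 and 1326 TPM after rutaecarpine. The groups overlapped, since rutaecarpine replicate 2 exceeded 2 of the controls. Its log2 fold change was -0.09 (SE 0.09, 95% CI -0.29 to 0.11, limma adjusted p = 0.560).

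HLA-E had 181, 187 and 169.5 TPM in the controls and 215, 201 and 220.5 TPM after rutaecarpine. All 3 rutaecarpine libraries were above all 3 controls, and the lowest of them exceeded the highest control by less than the range within either group. The log2 fold change was 0.24 (SE 0.08, 95% CI 0.06 to 0.43), and the limma adjusted p of 0.108 missed the threshold. B2M, the light chain shared by every class I molecule, had 10172, 10076 and 9493 TPM in the controls and 9963, 10799 and 10115 TPM after rutaecarpine. These values overlapped, with control replicate 3 the lowest. Its log2 fold change was 0.05 (SE 0.08, 95% CI -0.14 to 0.25, limma adjusted p = 0.719).

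TAP1, one chain of the peptide transporter, had 27.4, 27.4 and 27.6 TPM in the controls and 36.8, 35.6 and 39.5 TPM after rutaecarpine. The controls were nearly identical and every rutaecarpine library was higher. The means were 27.5 ± 0.12 and 37.3 ± 2.00 TPM (SD, n = 3), with a log2 fold change of 0.43 (SE 0.09, 95% CI 0.20 to 0.65, limma adjusted p = 0.0362), that is, a fold change between 1.15 and 1.57. The call was lost when libraries were centred on their medians (0.33, limma adjusted p = 0.204), without the mean-variance trend (adjusted p = 0.0566) and when any 1 library other than control replicate 3 was left out (adjusted p up to 0.174). It was kept without control replicate 3 (0.43, limma adjusted p = 0.0146).

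TAP2, the other transporter chain, was not called. Its TPM were 31.5, 20.1 and 19.2 in the controls and 25.1, 13.7 and 19.5 after rutaecarpine. The highest library was a control and the lowest a rutaecarpine library, and the spread within each group exceeded the difference between them (log2 fold change -0.27, SE 0.26, 95% CI -0.90 to 0.35, limma adjusted p = 0.565). The ratio of TAP1 to TAP2 was 0.869, 1.36 and 1.44 in the controls and 1.47, 2.60 and 2.02 after rutaecarpine. Its means were 1.22 ± 0.31 and 2.03 ± 0.57 (SD, n = 3). The groups did not overlap, but the highest control (1.44) lay just below the lowest rutaecarpine library (1.47). The exact permutation p of that ratio was 0.1 (two-sided), which is the smallest that 3 against 3 libraries can give.

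TAPBP, the tapasin gene, had 95.4, 98.6 and 95.4 TPM in the controls and 104.7, 80.5 and 91.0 TPM after rutaecarpine. The rutaecarpine libraries straddled the narrow control range (log2 fold change -0.07, SE 0.11, 95% CI -0.33 to 0.18, limma adjusted p = 0.705). ERAP1, the trimming peptidase, had 34.0, 35.3 and 10.7 TPM in the controls and 32.8, 25.4 and 38.3 TPM after rutaecarpine. Control replicate 3 was far below the other 5 libraries, and the log2 fold change of 0.41 (SE 0.43, 95% CI -0.61 to 1.44, limma adjusted p = 0.596) was -0.12 without it (adjusted p = 0.648). NLRC5 had 24.9, 27.0 and 15.8 TPM in the controls and 25.0, 21.4 and 26.1 TPM after rutaecarpine. It had the same low library and overlapping groups, with a log2 fold change of 0.12 (SE 0.21, 95% CI -0.37 to 0.61, limma adjusted p = 0.749) that became -0.10 without control replicate 3.

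**Figure D2:**
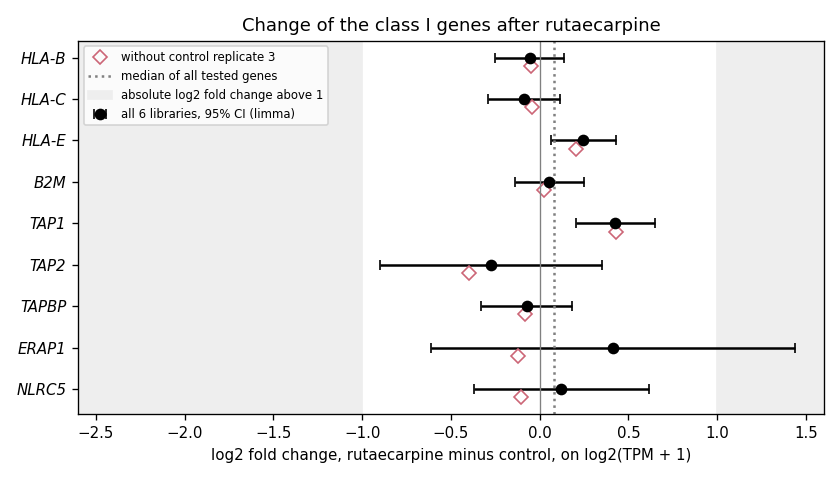
Log2 fold change (rutaecarpine minus control, on log2(TPM + 1)) of each class I gene with its 95% CI from limma over 6 libraries (filled points), and without control replicate 3 (open diamonds); grey areas are absolute values above 1 and the dotted line is the median of all tested genes, 0.08. The intervals of TAP1 and HLA-E lie above 0, and only the interval of ERAP1 reaches a grey area.

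Within the fit reported, the intervals bound how large a change could have been missed. For HLA-B, HLA-C and B2M the 95% limits of the fold change lay between 0.816 and 1.19 over the 3 genes. The 95% intervals of 8 of the 9 members stayed within 1 log2 unit of 0. These limits hold for that fit alone. With libraries centred on their medians, the log2 fold change was -0.15 for HLA-B, -0.18 for HLA-C and -0.039 for B2M. Intervals of that fit are not given. The interval of ERAP1 reached a fold change of 2.71.

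Because TPM is per length, heavy chains can be added. The sum of HLA-B, HLA-C and HLA-E was 5213, 5107 and 5342 TPM in the controls and 4974, 5408 and 4718 TPM after rutaecarpine, a difference of -3.59% with overlapping groups (exact permutation p = 0.5, two-sided). HLA-B made up 67.8% of that sum in controls and 67.7% after rutaecarpine (exact permutation p = 0.9). HLA-E made up 3.43% ± 0.24 and 4.24% ± 0.48 (SD, n = 3), without overlap (exact permutation p = 0.1). Light chain transcripts per heavy chain transcript, B2M over the sum, were 1.90 ± 0.11 and 2.05 ± 0.08 (SD, n = 3, exact permutation p = 0.1). These 4 measures and the TAP1 to TAP2 ratio were each tested alone, and none can pass 0.05 with 3 libraries a group. The same holds for the NLRC5 to CIITA ratio and the class II sum given below. Further sums and ratios were tested in the same way and are not reported here.

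The other genes of the pathway were taken from lists by role, each read against the shares of all tested genes given above. Among 9 chaperones and editors of peptide loading, 2 were called higher, 1 lower and 6 were not called, with a median log2 fold change of 0.17. HSPA5, the endoplasmic reticulum chaperone BiP, rose from 275, 291 and 229.9 TPM to 859, 1142 and 1132 TPM, and was the largest change of the list (log2 fold change 1.97, SE 0.14, limma adjusted p = 5.4e-04). CALR, the calreticulin of the loading complex, rose from 798 ± 42.6 to 1022 ± 62.2 TPM (SD, n = 3; log2 fold change 0.36, limma adjusted p = 0.0372). TAPBPL, the tapasin-related editor TAPBPR, fell from 29.2 ± 3.15 to 18.9 ± 2.64 TPM (SD, n = 3; log2 fold change -0.60, limma adjusted p = 0.0454). TAPBP itself was not called, and the difference between the pair was not tested. The calls of CALR and TAPBPL each held in 1 of the 6 fits that left out a library. Both were lost with centring (limma adjusted p = 0.458 for CALR and 0.0915 for TAPBPL). The chaperone CANX (0.75, limma adjusted p = 0.126), the oxidoreductase PDIA3 of the loading complex (0.17, adjusted p = 0.337) and the glucosidase subunit GANAB (-0.13, adjusted p = 0.398) were not called, although CANX passed without control replicate 3 (0.43, limma adjusted p = 0.0159).

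None of the 7 tested genes among 9 other class I and class I-like genes was called. HLA-F, a non-classical heavy chain, had 19.9 ± 4.24 and 27.1 ± 2.20 TPM (SD, n = 3) without overlap (log2 fold change 0.44, limma adjusted p = 0.157), and PROCR, the class I-like protein C receptor, had a log2 fold change of 0.04. The non-classical chain HLA-G was below the level for testing, at 0.23 TPM in controls and 0.69 TPM after rutaecarpine.

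Proteasomes make the peptides that TAP carries. None of 5 immunoproteasome and activator genes (median log2 fold change -0.06) was called, nor any of 5 constitutive catalytic and further activator genes (median 0.14). PSME1 and PSME2, which encode the proteasome activator PA28, had log2 fold changes of -0.11 and 0.09, and the inducible subunit PSMB10 one of -0.06. Of the constitutive subunits, PSMB7 had a log2 fold change of 0.26 (limma adjusted p = 0.108, and 0.00939 without control replicate 3), PSMB6 one of 0.09 and PSMB5 one of 0.01. Without control replicate 3, the immunoproteasome list held 1 call, PSMB8 (0.41, limma adjusted p = 0.0213). The constitutive list held 2, PSMB7 and the activator PSME4 (0.39, limma adjusted p = 0.0378), and all were higher. PSMB9, whose gene is transcribed away from TAP1 out of the region between them, had 36.0 ± 6.66 and 33.4 ± 4.61 TPM (SD, n = 3). It was not called (log2 fold change -0.10, limma adjusted p = 0.741), unlike TAP1, although the difference between the pair was not tested. Without control replicate 3 the log2 fold change of PSMB9 was 0.04 (limma adjusted p = 0.857).

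Of 12 transcription factors known to act on class I promoters, none was called, and their median log2 fold change was 0.19. IRF1, which binds IRF elements of the kind printed above, had 57.9, 71.9 and 65.4 TPM in controls and 79.3, 79.5 and 89.2 TPM after rutaecarpine, without overlap (log2 fold change 0.34, SE 0.11, limma adjusted p = 0.104). The NF-kappaB subunit RELA had a log2 fold change of 0.33 (limma adjusted p = 0.141) and RFXANK, a subunit of the RFX complex that NLRC5 works with, one of 0.10 (adjusted p = 0.528). Without control replicate 3, 1 gene of the list was called, RFX5, lower (-0.35, limma adjusted p = 0.0362). Among 14 interferon sensing genes, 12 were tested, with 1 called higher, 1 called lower (2 without control replicate 3) and a median of 0.17. IRF9, the DNA-binding subunit of the type I interferon response complex, rose from 18.5 ± 0.42 to 27.1 ± 3.25 TPM (SD, n = 3; log2 fold change 0.52, limma adjusted p = 0.0437). That call held in 1 of the 6 fits that left out a library and was lost with centring (limma adjusted p = 0.115). SOCS3, a feedback inhibitor of JAK signalling, fell from 40.9 ± 1.82 to 20.2 ± 1.22 TPM (SD, n = 3; log2 fold change -0.98, limma adjusted p = 0.00201). The kinases TYK2 (0.14, limma adjusted p = 0.458) and JAK1 (0.21, adjusted p = 0.563) were not called, and IFNG and IFNB1 were listed at 0 in all 6 libraries.

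**Figure D3:**
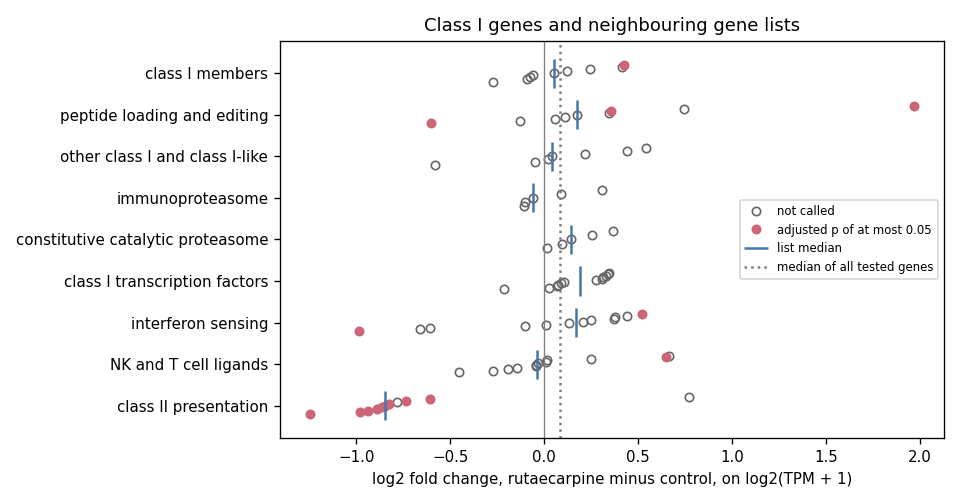
Log2 fold change (rutaecarpine minus control) of each tested gene in the class I members and 8 related lists, with called genes filled and list medians as blue bars. Class II presentation genes sit mainly at negative values, HSPA5 lies at 1.97, and most other lists spread around the median of all tested genes (dotted line).

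Class II molecules present peptides taken up from outside the cell, and their genes share the RFX and NF-Y promoter machinery with class I genes. Here 9 of 11 class II presentation genes were called lower, 0 were called higher and 2 were not called, with a median log2 fold change of -0.85 beside 0.05 for the class I members. HLA-DRA fell from 382 ± 27.4 to 209 ± 3.47 TPM and HLA-DRB1, its partner chain, from 431 ± 52.1 to 223 ± 13.2 TPM (SD, n = 3; limma adjusted p = 0.00122 and 0.00258). The invariant chain gene CD74 fell from 2738 ± 355 to 1517 ± 95.6 TPM (SD, n = 3; log2 fold change -0.85, limma adjusted p = 0.00491). HLA-DMA, which helps load class II peptides, was the only DEG of the list, at 65.6 ± 7.53 and 27.0 ± 1.11 TPM (SD, n = 3; log2 fold change -1.25, limma adjusted p = 0.00122). The other genes called were HLA-DQA1 (-0.98), HLA-DMB (-0.89), HLA-DQB1 (-0.83), HLA-DPA1 (-0.73) and HLA-DPB1 (-0.61), with limma adjusted p between 0.00356 and 0.0221. The calls of HLA-DMB and HLA-DPA1 held in 3 of the 6 fits that left out a library and that of HLA-DPB1 in 2, and both HLA-DPA1 (limma adjusted p = 0.0597) and HLA-DPB1 (adjusted p = 0.0856) lost it with centring. CIITA, the class II counterpart of NLRC5, had 13.6, 10.8 and 8.76 TPM in controls and 7.40, 4.87 and 5.72 TPM after rutaecarpine, without overlap (log2 fold change -0.78, limma adjusted p = 0.0703). The ratio of NLRC5 to CIITA was 2.04 ± 0.39 in controls and 4.11 ± 0.64 after rutaecarpine (SD, n = 3, exact permutation p = 0.1). The protease CTSS, which degrades the invariant chain, went the other way in value, from 64.7 ± 18.1 to 108 ± 4.49 TPM (SD, n = 3), and was not called (log2 fold change 0.77, limma adjusted p = 0.0635). Without control replicate 3, both CIITA (-0.92, limma adjusted p = 0.0156) and CTSS (0.53, adjusted p = 0.00434) passed the test.

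The 6 class II alpha and beta chains together had 1291, 1296 and 1560.4 TPM in controls and 789, 784 and 752 TPM after rutaecarpine, a difference of -43.9% without overlap (exact permutation p = 0.1). The summed TPM of the 7 leukocyte markers, nearly all of it CD68, was 452 to 511 in controls and 319 to 357 after rutaecarpine, with each of the other 6 at no more than 0.54 TPM in any library, and its part in the class II values was not tested. The class I sum overlapped between groups and the class II sum did not, as in the plot of both sums.

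**Figure D4:**
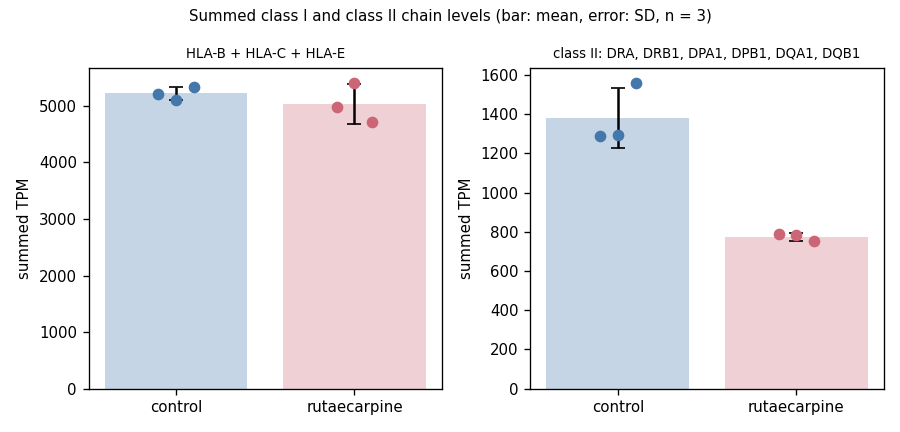
Summed TPM of the class I heavy chains HLA-B, HLA-C and HLA-E (left) and of 6 class II chains (right) in control and rutaecarpine libraries, on axes from 0, with bars for the mean, error bars for the SD (n = 3) and points for libraries. The class I groups overlap, and the class II libraries after rutaecarpine (752 to 789 TPM) lie below every control (1291 to 1560.4 TPM).

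Surface ligands read by NK and T cells beside class I comprised 12 genes, of which 1 was called higher and 0 lower, with a median log2 fold change of -0.04. ULBP2, a stress-induced ligand of the activating receptor NKG2D, rose from 12.6 ± 0.98 to 20.3 ± 1.16 TPM (SD, n = 3; log2 fold change 0.65, limma adjusted p = 0.0196), a call held in 1 of the 6 fits that left out a library. The checkpoint ligand CD276 (-0.19, limma adjusted p = 0.213), CD47, a signal against phagocytosis (-0.03, adjusted p = 0.937), and NECTIN2 (-0.04, adjusted p = 0.808) were not called. Without control replicate 3, CD47 was called lower (-0.27, limma adjusted p = 0.0298), and the list held 2 calls higher and 2 lower.

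The members did not vary together across libraries as 1 block. Over the 6 libraries, as a description that holds both groups, Pearson's r of log2(TPM + 1) was 0.99 for ERAP1 with NLRC5, which shared the low value in control replicate 3, 0.94 for HLA-E with TAP1, which shared the group difference, and 0.84 for HLA-B with HLA-C, while it was -0.33 for TAP1 with TAP2. The mean standardised profile of the 9 members was lowest in control replicate 3. The 5 tested genes most like that profile over the 6 libraries were AC008397.2 (r = 0.995), LONRF1 (r = 0.993), C1orf216 (r = 0.991), NUDT3 (r = 0.991) and MTMR9 (r = 0.99), and control replicate 3 was the lowest library in each of them. GAPDH, used as a check of scale, had means of 11555 and 10448 TPM (log2 fold change -0.15, limma adjusted p = 0.360).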

How the data were processed

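Total RNA of U87 cells was sequenced by the authors on an Illumina NovaSeq, and the TPM values they deposited were made with RSEM. The submitters' processing notes name GRCh38.p13, DESeq2 and edgeR. The aligner, annotation release and filters are not given in the sources used here. The deposited TPM hold no read counts, so no count model and no counting interval was used. All 6 columns were matched to samples by their labels and 0 were left over. HLA-B and TAPBP carry no name in the table and were found by Ensembl identifier.

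Values were put on the log2(TPM + 1) scale. The genes that reached a TPM of 1 in 3 or more libraries were compared in limma 3.58.1 (R 4.3.3) with a mean-variance trend, two-sided, with p-values adjusted across all 14377 by the Benjamini-Hochberg method. An adjusted p of at most 0.05 counted as a call. The fold changes understate those of weakly expressed genes. The fit was first tested on simulated data. Sums and ratios were compared by exact permutation tests in scipy 1.17.1, two-sided, over libraries. Likeness to the members was Pearson's r with the mean of their standardised log2(TPM + 1). Promoters came from RefSeq (GRCh38.p14) and positions from GENCODE 29.

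The members and gene lists were chosen with earlier results of these data known. Named list genes were all those called, up to 10 a list, and up to 3 not called with the highest mean TPM. HLA-G, PSMB8, PSMB9, PSME4, RFX5, IFNG, IFNB1 and the leukocyte markers at or near 0 are named outside that rule, after their values were seen. Some list genes are counted in their lists but are not reported here by name. No normalization between libraries was added. The alternatives tried were median centring, no trend, no or a stricter filter on low values, a pseudocount of 0.1, the replicate number as a block, library weights, a threshold of 0.001, removal of length and GC trends, and leaving out each library.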

Additional observations from a re-analysis of the deposited data

How the results depend on the processing

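The number of class I members called, 1 in the fit reported, was 0 with libraries centred on their medians, 0 without the trend, 0 at an adjusted p of at most 0.001, 2 with library weights, 2 with length and GC trends removed (an alternative added once the low median of control replicate 3 was known), and 0 to 1 when libraries were left out in turn. The second call in the fits with 2 was HLA-E (limma adjusted p = 0.0142 with weights and 0.0393 with trends removed). No member was a DEG under any alternative run. Over all tested genes, the 1335 calls became 3962 with library weights, 2762 with trends removed, 96 at 0.001 and 539 to 2666 when libraries were left out, and the 505 DEGs became 94 at 0.001. The 15 calls in the pathway lists became 33, 25 and 1 under those first 3 settings and 8 to 26 when libraries were left out. The 9 class II calls became 0 at 0.001 and 6 to 11 when libraries were left out; settings for these lists were added after their values were seen. The summed heavy chain difference of -188 TPM became -593 with TPM divided by library medians, and -375 to -30.0 when libraries were left out. The cause was not tested for any of these.

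Some fold changes of genes that were not called turned sign. On the log2 scale these were HLA-B (0.0088) and B2M (-0.063) with trends removed, B2M (-0.039), PROCR (-0.051), PSME2 (-0.0027) and PSMB5 (-0.078) with centring, ERAP1 (-0.014), NLRC5 (-0.055) and NECTIN2 (0.030) with weights, and PSMB10 (0.018) with trends removed. When libraries were left out, the ranges were -0.17 to 0.017 for TAPBP, -0.12 to 0.70 for ERAP1, -0.10 to 0.26 for NLRC5, -0.15 to 0.065 for PSMB10, -0.048 to 0.13 for PSMB5, -0.027 to 0.33 for JAK1, -0.27 to 0.095 for CD47, -0.099 to 0.022 for NECTIN2 and -0.050 to 0.43 for CD44. Centring moved the median fold change of all tested genes from 0.08 to -0.01.

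Same-numbered libraries did not consistently deviate together from their group means (r = 0.116, -0.266 and -0.215), and the numbers were not taken as pairs. With so few libraries a group, these correlations are constrained and cannot exclude pairing or a shared batch. With the replicate number as a block, the calls were 0 members, 428 genes and 318 DEGs in all, 8 genes of the pathway lists, 6 class II genes and 1 of the line markers.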
